A study of Semiaphis heraclei with 6 samples.

Results

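*CYP301A1* (Unigene9860-S1) and *CYP303A1* (Unigene32818-S3) are 2 of the 16 cytochrome P450 genes that the study named in the transcriptome of the celery aphid *Semiaphis heraclei*, among 57382 unigenes in all. They were taken by their unigene IDs, with gene names from the study, because both are conserved insect genes of cuticle and bristle, and they were chosen by their expression in these 6 samples, in which both were lower after afidopyropen. That fall is therefore described below without a test. The 6 samples were 3 of wild-type aphids treated with afidopyropen and 3 of wild-type aphids treated with acetone, called the control. The third-instar nymphs received a droplet of 50 nL on the dorsal plate, with afidopyropen at its median lethal dose, and nymphs that survived it were collected after 48 h. Each sample was a pool of whole bodies from a repeat of 30 insects, so the spread given here is that between pools. The number of survivors in each afidopyropen pool is not given in the sources used here. In pools of whole insects, fewer cells of a type and less RNA per cell cannot be told apart. Survival, stage at collection and the solvent cannot be told apart from the insecticide in this comparison, since the study names DMSO as the solvent of afidopyropen in its bioassay and names only acetone for the control.

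Insect P450 enzymes fall into clades, of which the mitochondrial (Mito) and CYP2 clades hold many conserved genes with roles in hormones and development, while the CYP3 and CYP4 clades hold many genes of detoxification. *CYP301A1* belongs to the Mito clade and is known in *Drosophila melanogaster* for its role in forming the adult cuticle. *CYP303A1* belongs to the CYP2 clade. In *D. melanogaster* it is needed for the structure and function of external sensory bristles, and in the locust *Locusta migratoria* its loss impairs moulting. Afidopyropen acts on a cation channel of stretch-sensing organs and disturbs feeding and movement. No role of either gene in aphids is assumed here.

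The primers that the study designed for RT-qPCR are shown because they mark the stretches of the 2 transcripts whose letters are given in the sources used here. A reverse primer reads as the complementary strand of its transcript. All primers are written 5′ to 3′, and the capitals mark the last 5 bases at the end that the polymerase extends.
*CYP301A1* forward: cagacctagaagcgACTAA
*CYP301A1* reverse: gcctatgactggtaaCATTC
*CYP303A1* forward: agaagccgttcagTTAGT
*CYP303A1* reverse: gaccataatgtgttcaAGACT
The *CYP301A1* primers are 19 and 20 bases long with a GC content of 47.4% and 45.0%. The *CYP303A1* primers are 18 and 21 bases long with a GC content of 44.4% and 38.1%.

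Expression levels are given as FPKM, which adjusts the number of fragments of each unigene for the length of the unigene and the number of mapped fragments. The FPKM summed over all unigenes to 690884 to 696579 in the afidopyropen samples and to 706796 to 713893 in the control samples. Unigenes above 0 numbered 46037 to 47231 in the afidopyropen samples and 47417 to 47623 in the control samples. Their median was 2.46 to 2.59 FPKM over the 6 samples. The depth of a sample in reads is not given by FPKM, but the study lists the clean reads of each sample. No unigene ID was found in the annotation of the assembly ASM4611911v1 of this aphid, so genes outside the study's own list have no names here, and other genes of cuticle or bristle could not be followed.

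*CYP303A1* was the most abundant of the 16 P450 genes in the control samples, and *CYP301A1* came next. *CYP303A1* was at 42.04, 45.42 and 46.93 FPKM in control replicates 1, 2 and 3, with a mean of 44.8 ± 2.50 FPKM (SD, n = 3). *CYP301A1* was at 18.5, 18.45 and 20.11 FPKM, with a mean of 19.02 ± 0.944 FPKM (SD, n = 3). Every control value of *CYP303A1* lay above every control value of *CYP301A1*. Below the pair stood *CYP6DB1*, a gene of the CYP3 clade, whose highest control value of 16.11 FPKM was under the lowest control value of *CYP301A1*. *CYP6DB1* itself overlapped with the next gene, *CYP18A1*, an enzyme that inactivates the moulting hormone. Of the 15 pairs of neighbours in the control order, 7 did not overlap, and these included the first 2, which are those that involve *CYP303A1* and *CYP301A1*.

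Among all unigenes, both genes stood high in the acetone-treated control. The control mean of *CYP303A1* exceeded that of 96.8% of the 57382 unigenes, and that of *CYP301A1* exceeded 91.4%. Ranked from the top, *CYP303A1* was at 1983, 1836 and 1784 in the 3 control samples, and *CYP301A1* at 5125, 5130 and 4738. *CYP303A1* was at 16.2 to 18.8 times the median of the unigenes above 0 in its control sample, and *CYP301A1* at 7.14 to 8.08 times that median. The spread between control pools was small for both genes, with a coefficient of variation of 5.59% for *CYP303A1* and 4.96% for *CYP301A1*. Among the 804 other unigenes with a control mean within 1.2-fold of that of *CYP303A1*, the median coefficient was 3.88% and 70.4% had a smaller one. Among the 1729 such unigenes for *CYP301A1*, the median was 5.59% and 44.4% had a smaller one.

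Both genes were lower in every afidopyropen sample than in any control sample. *CYP301A1* was at 8.87, 8.59 and 7.55 FPKM in afidopyropen replicates 1, 2 and 3, against 18.5, 18.45 and 20.11 FPKM in the control. Its afidopyropen mean of 8.34 ± 0.696 FPKM (SD, n = 3) was 43.8% of the control mean of 19.02 ± 0.944 FPKM (SD, n = 3), and 9.58 FPKM separated the lowest control value from the highest afidopyropen value. *CYP303A1* was at 23.68, 25.11 and 25.91 FPKM under afidopyropen treatment, against 42.04, 45.42 and 46.93 FPKM in the control. Its afidopyropen mean of 24.9 ± 1.13 FPKM (SD, n = 3) was 55.6% of the control mean of 44.8 ± 2.50 FPKM (SD, n = 3), with a gap of 16.1 FPKM between the groups. In each gene the gap between the groups was wider than the whole range within either group. On log2(FPKM + 0.5), the difference of afidopyropen minus control was -1.15 (standard error 0.0786) for *CYP301A1* and -0.83 (standard error 0.0563) for *CYP303A1*. In 19.1% of the 51749 unigenes that averaged 0.5 FPKM or more over the 6 samples, every afidopyropen value was likewise below every control value. Both genes were chosen for such a fall. The study's own transcriptome test also listed both genes as downregulated. By RT-qPCR, however, the study reported all the CYP2 genes it named as significantly upregulated after afidopyropen, which includes *CYP303A1*. Its text does not say which Mito gene was upregulated by RT-qPCR. The RT-qPCR values were not analysed here.

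**Figure D1:**
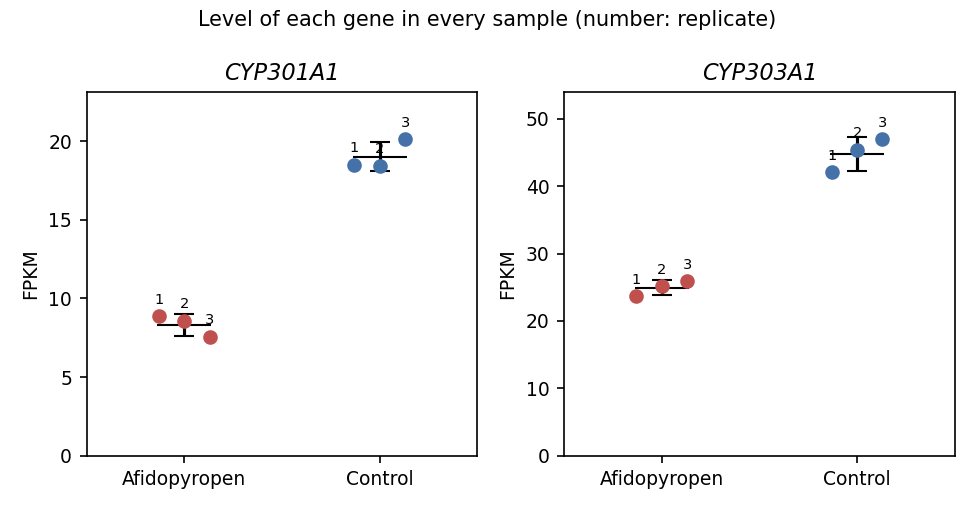
FPKM of *CYP301A1* (left) and *CYP303A1* (right) in the 3 afidopyropen and 3 control samples, with each dot 1 sample numbered by its replicate and bars for the mean ± SD. *CYP301A1* lay between 7.55 and 8.87 FPKM under afidopyropen and between 18.45 and 20.11 FPKM in the control, and *CYP303A1* between 23.68 and 25.91 FPKM and between 42.04 and 46.93 FPKM.

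After treatment the genes kept a place in the upper part of the distribution, and *CYP301A1* lost more ranks than *CYP303A1*. *CYP301A1* stood above 83.5%, 82.7% and 81.0% of all unigenes in the afidopyropen samples, against 91.1%, 91.1% and 91.7% in the control samples. *CYP303A1* stood above 93.4%, 93.7% and 93.9% of all unigenes in the afidopyropen samples, against 96.5%, 96.8% and 96.9% in the control samples. *CYP301A1* was then at 2.96 to 3.61 times the median of the unigenes above 0 in its sample, against 7.14 to 8.08 times in the control. *CYP303A1* was at 9.63 to 10.2 times that median, against 16.2 to 18.8 times in the control.

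**Figure D2:**
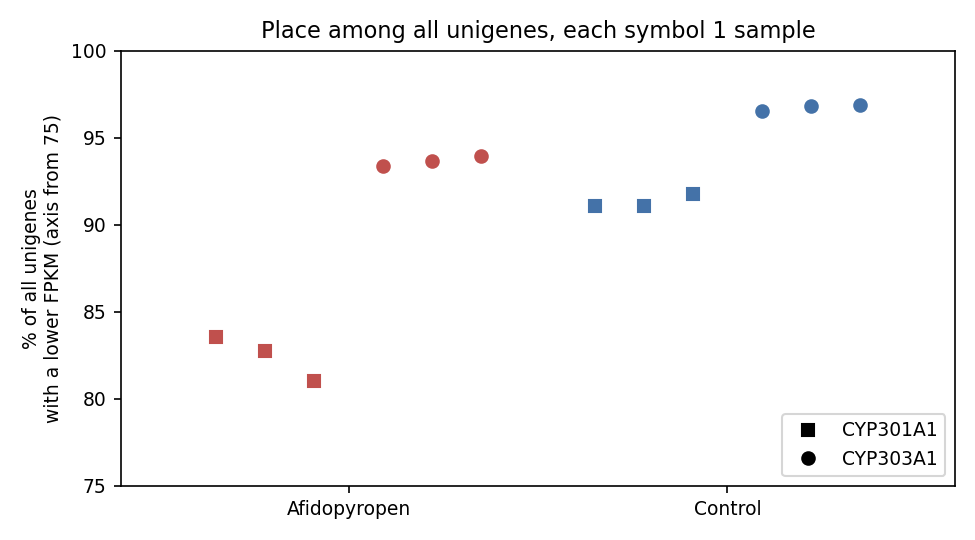
Percentage of all unigenes with a lower FPKM than *CYP301A1* (squares) and *CYP303A1* (circles) in each of the 3 afidopyropen (red) and 3 control (blue) samples, on an axis that starts at 75. *CYP301A1* stood at 81.0% to 83.5% under afidopyropen and at 91.1% to 91.7% in the control, and *CYP303A1* at 93.4% to 93.9% and at 96.5% to 96.9%.

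Falls as large as these were found across the table. Of all other unigenes tested, 9.45% had a log2 fold change as low as that of *CYP301A1* or lower, and 15.3% one as low as that of *CYP303A1* or lower. Among the 1729 unigenes with a control mean within 1.2-fold of that of *CYP301A1*, the median log2 fold change was -0.08, with quartiles of -0.36 and 0.21, and 71 unigenes, or 4.11%, had one as low as that of *CYP301A1* or lower. In 41.6% of these unigenes all afidopyropen values lay below all control values. Among the 804 unigenes around *CYP303A1*, the median log2 fold change was -0.10, with quartiles of -0.36 and 0.14, and 56 unigenes, or 6.97%, had one as low or lower. In 48.5% of them the afidopyropen values lay below the control values. These shares describe where the 2 genes stood and are no test, since both were picked for their fall.

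The fall of *CYP301A1* was larger than that of *CYP303A1*, so their ratio differed between the groups. *CYP303A1* was at 2.67, 2.92 and 3.43 times the FPKM of *CYP301A1* in afidopyropen replicates 1, 2 and 3, against 2.27, 2.46 and 2.33 times in the control replicates. The ratio averaged 3.01 ± 0.388 (SD, n = 3) under afidopyropen and 2.36 ± 0.0966 (SD, n = 3) in the control. The groups did not overlap, but afidopyropen replicate 3 stood apart with the highest ratio, and the gap between the groups was smaller than the range among the afidopyropen samples. The log2 fold change of *CYP301A1* minus that of *CYP303A1* was -0.31, and -0.22 without afidopyropen replicate 3. In that replicate *CYP301A1* had its lowest value and *CYP303A1* its highest value of the afidopyropen group. In the control, replicate 3 held the highest value of both genes. The 2 genes therefore did not deviate together in every pool.

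The pair held a smaller share of the summed FPKM of the 16 P450 genes after treatment, a description only, since both were chosen for their fall. *CYP301A1* and *CYP303A1* together made up 24.9%, 25.3% and 25.4% of the summed FPKM of the 16 P450 genes in the afidopyropen samples, against 41.5%, 43.5% and 43.6% in the control samples. The FPKM of the pair summed to 33.2 ± 0.607 (SD, n = 3) under afidopyropen and to 63.8 ± 3.25 (SD, n = 3) in the control. The other 14 genes summed to 98.7 ± 0.844 FPKM (SD, n = 3) under afidopyropen and to 84.9 ± 1.85 FPKM (SD, n = 3) in the control. The sum of the 14 genes was thus higher, and that of the pair lower, in every afidopyropen sample than in any control sample. The rise of that sum came mainly from *CYP18A1* and *CYP307A2*, both of the CYP2 clade. Several of the 14 genes had lower means under afidopyropen, so the sum does not describe each of them.

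**Figure D3:**
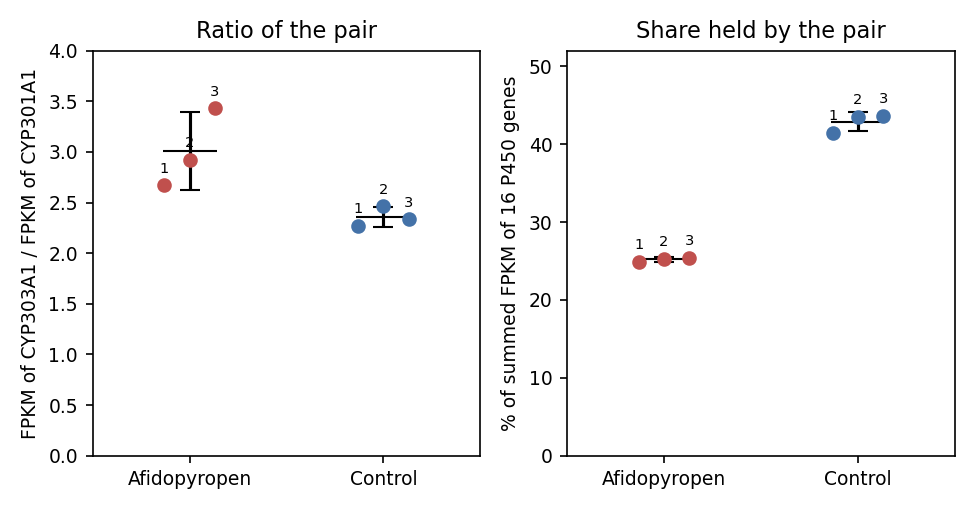
Ratio of the FPKM of *CYP303A1* to that of *CYP301A1* (left) and share of the pair in the summed FPKM of the 16 P450 genes in % (right), with each dot 1 sample numbered by its replicate and bars for the mean ± SD of 3 samples. The ratio was 2.67 to 3.43 under afidopyropen and 2.27 to 2.46 in the control, and the share 24.9% to 25.4% and 41.5% to 43.6%.

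The order of the P450 genes differed between the groups. Under afidopyropen treatment *CYP18A1* stood first, at 25.41, 27.1 and 26.08 FPKM, and *CYP303A1* came next, with values that overlapped with those of *CYP18A1*. In the control *CYP303A1* stood first and *CYP18A1* was at 14.14, 14.74 and 16.85 FPKM, below *CYP301A1*. *CYP301A1* took place 7 of 16 under afidopyropen, against place 2 in the control. Its neighbours under afidopyropen were *CYP6CY77* above, whose values of 7.76 to 9.18 FPKM overlapped with its own, and *CYP306A1* below, whose highest value of 5.8 FPKM did not. *CYP6CY77* belongs to the CYP3 clade and *CYP306A1* is a hydroxylase of ecdysteroid synthesis.

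**Figure D4:**
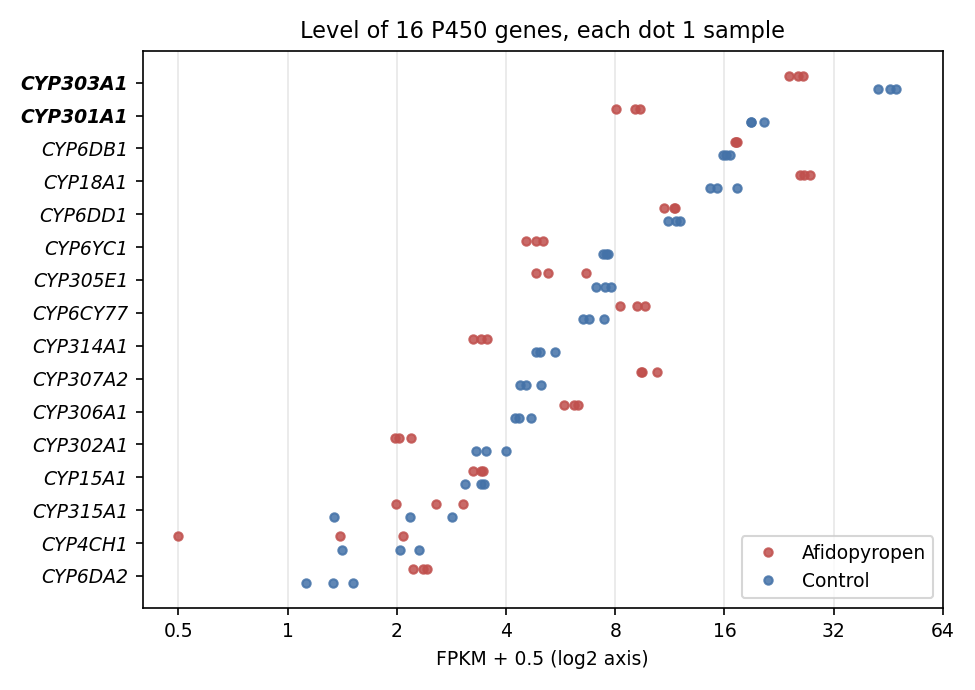
FPKM + 0.5 of the 16 P450 genes on a log2 axis, with each dot 1 of the 3 afidopyropen (red, upper) or 3 control (blue, lower) samples and the genes ordered by their control mean. *CYP18A1* leads under afidopyropen with a mean of 26.2 FPKM, and *CYP303A1* and *CYP301A1* lead in the control with means of 44.8 and 19.02 FPKM.

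The other 14 P450 genes moved in both directions. Of these, 4 were higher and 3 lower under afidopyropen treatment at an adjusted p under 0.05 from limma. The other 7 did not pass the test. The study's own DESeq test listed the 4 higher genes as upregulated, and also *CYP6DA2*, which did not pass here. It listed none of the 3 lower genes as differential. Over all 51749 unigenes tested, 8.20% were called higher and 9.79% lower. This balance narrowed or turned with the scaling. As deposited, 4241 unigenes were called higher and 5067 lower, and with each sample rescaled to a common FPKM total 4619 higher and 4667 lower. Quantile normalization gave 4807 higher and 4526 lower, and scaling by the median of ratios 4663 higher and 4603 lower. The median log2 fold change of the 14 genes was 0.05, against -0.04 over all unigenes tested, and that of *CYP303A1* and *CYP301A1* was below that of each of the 14. The next was *CYP302A1*, a hydroxylase of ecdysteroid synthesis, at -0.80 with a standard error of 0.172. This order did not hold throughout. At a pseudocount of 0.1, *CYP302A1* was at -0.94 and *CYP4CH1*, which was at 0 FPKM in 1 afidopyropen sample, at -1.41, against -0.84 for *CYP303A1* and -1.18 for *CYP301A1*. Without control replicate 2, *CYP302A1* was at -0.86 and *CYP4CH1* at -0.94, against -0.82 for *CYP303A1*, and without control replicate 3 *CYP302A1* was at -0.817, against -0.80. *CYP4CH1* was at -1.171 without afidopyropen replicate 2, just under *CYP301A1* at -1.167, and at -0.88 without afidopyropen replicate 3, against -0.86 for *CYP303A1*.

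By clade, 2 of the 3 other Mito genes were called lower and none higher. Of the 5 other CYP2 genes, 3 were called higher and none lower. Over all unigenes tested, 9.79% were called lower and 8.20% higher. These clade counts leave out *CYP301A1* of the Mito clade and *CYP303A1* of the CYP2 clade, both chosen for their fall. The difference between the clades was not tested, and both Mito calls were lost in some of the alternatives given after the clades. *CYP302A1*, in the Mito clade, was at 1.48, 1.53 and 1.69 FPKM in the afidopyropen samples, against 3.5, 2.81 and 3.03 FPKM in the control (adjusted p = 0.0220 from limma). *CYP314A1*, which makes the active moulting hormone, was at 2.92, 2.75 and 3.05 FPKM, against 4.35, 4.47 and 4.96 FPKM in the control (adjusted p = 0.0191 from limma). Both afidopyropen groups lay wholly below their controls, at levels well under those of *CYP301A1*. The third, *CYP315A1*, a further hydroxylase of ecdysteroid synthesis, did not pass (adjusted p = 0.590 from limma).

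In the CYP2 clade, *CYP307A2*, which acts early in ecdysteroid synthesis, was at 9.95, 8.95 and 8.99 FPKM in the afidopyropen samples, against 4.49, 3.88 and 4.05 FPKM in the control (adjusted p = 0.000609 from limma). *CYP18A1* was higher by 0.77 on the log2 scale (adjusted p = 0.000854 from limma), and *CYP306A1* by 0.46 (adjusted p = 0.0247 from limma). *CYP15A1*, an epoxidase of juvenile hormone synthesis, had a log2 fold change of 0.02, and *CYP305E1* one of -0.43. Neither passed (adjusted p = 0.948 and 0.0850 from limma). Every afidopyropen value of *CYP305E1* nonetheless lay below every control value, at 4.33 to 6.14 FPKM against 6.56 to 7.27 FPKM.

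In the CYP3 clade, 1 of 5 genes was higher and 1 lower, and the single CYP4 gene, *CYP4CH1*, did not pass (adjusted p = 0.482 from limma). *CYP6YC1* was at 4.04, 4.55 and 4.35 FPKM in the afidopyropen samples, against 6.91, 7.13 and 7.06 FPKM in the control (adjusted p = 0.00381 from limma). *CYP6CY77* was higher by 0.39 on the log2 scale (adjusted p = 0.0385 from limma). The level of *CYP6DA2* averaged 1.83 ± 0.108 FPKM (SD, n = 3) under afidopyropen and 0.82 ± 0.195 FPKM (SD, n = 3) in the control, with groups that did not overlap and a log2 fold change of 0.83, and did not pass (adjusted p = 0.0810 from limma). It passed, at 0.0278, when limma's variance did not follow the mean. *CYP6DB1*, which stood just below *CYP301A1* in the control, was at 16.7 ± 0.0971 FPKM (SD, n = 3) under afidopyropen and 15.7 ± 0.389 FPKM (SD, n = 3) in the control and did not pass (adjusted p = 0.246 from limma).

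The calls of *CYP18A1*, *CYP307A2* and *CYP6YC1* held under each of the 16 alternatives to the processing. The calls of the 4 other genes did not, when 1 sample was left out. That of *CYP302A1* was lost without any 1 of the 6 samples, with limma's adjusted p then between 0.0501 and 0.0770. That of *CYP306A1* was lost without control replicate 2 or 3 or any afidopyropen replicate, at 0.0560 to 0.0874, and that of *CYP314A1* without control replicate 2 or 3 or afidopyropen replicate 1 or 2, at 0.0535 to 0.0606. That of *CYP6CY77* was lost without control replicate 2 or 3 or afidopyropen replicate 2 or 3, at 0.101 to 0.120, and also at 0.101 when limma's variance did not follow the mean. *CYP305E1* passed, at 0.0263, without afidopyropen replicate 1.

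**Figure D5:**
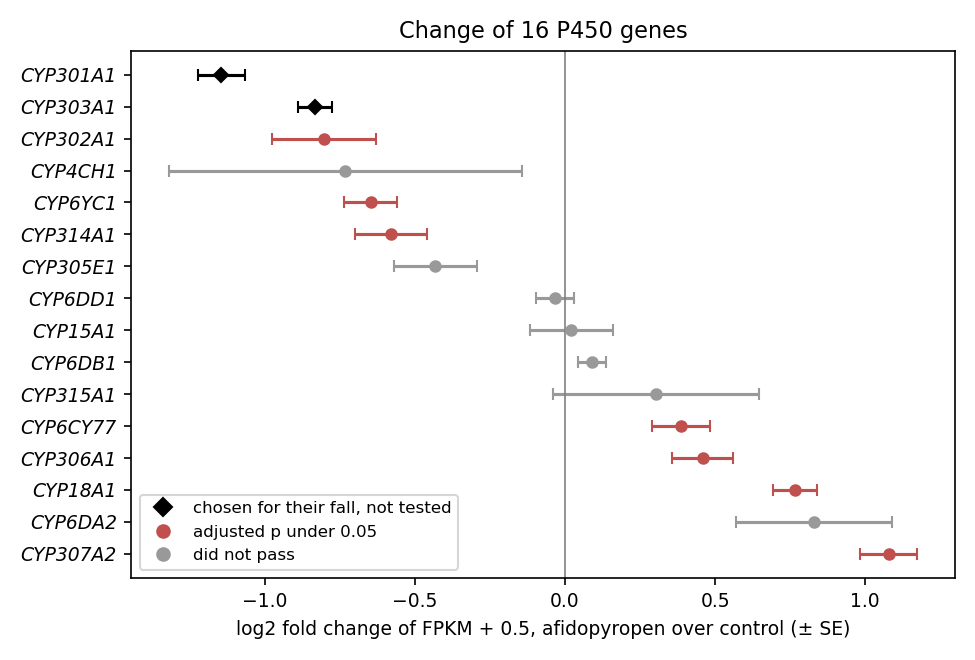
Log2 fold change of FPKM + 0.5, afidopyropen over control, with its standard error, for the 16 P450 genes, of which *CYP301A1* and *CYP303A1* (diamonds) were chosen for their fall and are not tested. They stand at -1.15 and -0.83, and among the other 14 genes 4 were higher and 3 lower at an adjusted p under 0.05 from limma (red).

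Many unigenes had a pattern over the samples like that of the pair. Likeness was measured by the Pearson correlation of log2(FPKM + 0.5) over the 6 samples, among 13918 other unigenes that averaged 5 FPKM or more, and it is dominated by the difference between the 2 groups. *CYP301A1* and *CYP303A1* had a correlation of 0.977 with each other, yet *CYP303A1* took place 1212 by likeness to *CYP301A1*, and *CYP301A1* place 1382 by likeness to *CYP303A1*. A correlation of at least 0.95 was reached by 16.1% of the unigenes for *CYP301A1* and by 16.97% for *CYP303A1*.

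The unigene most like *CYP301A1* was Unigene3388-S3, with a correlation of 0.9995 over the 6 samples. It was at 2.87, 2.49 and 1.67 FPKM in the afidopyropen samples, against 16.57, 16.1 and 21.15 FPKM in the control. Its fall was larger, at -2.71 on the log2 scale, against -1.15 for *CYP301A1*, so the 2 had the same order of samples and not the same size of change. The unigene most like *CYP303A1* was Unigene8006-S5, with a correlation of 0.9997 over the same samples. It was at 77.14, 80.92 and 82.58 FPKM in the afidopyropen samples, against 132.5, 144.78 and 149.53 FPKM in the control. It kept a nearly constant ratio to *CYP303A1*, of 3.19 to 3.26 in the afidopyropen samples and 3.15 to 3.19 in the control. The deposited values pair neither unigene with a gene name.

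The unigene IDs end in a suffix, S1 for *CYP301A1* and S3 for *CYP303A1*, and the direction of change differed between suffixes across the whole table. Of the unigenes called, 79.6% were lower among those ending in S1 and 78.5% among those ending in S3, against 54.4% over all suffixes. The share was 77.9% for S4, but 30.0% for S2, 28.1% for S5 and 28.2% for S6. The median log2 fold change of the unigenes tested was -0.37 for S1 and -0.35 for S3, against -0.04 over all suffixes. Among called unigenes that averaged 10 FPKM or more, the share that was lower was 68.9% for S1, 69.8% for S3 and 56.0% over all suffixes. The part of the suffix in the fall of the 2 genes was not tested. Of the 2 unigenes with the likest patterns, Unigene3388-S3 carries suffix S3, and Unigene8006-S5 carries suffix S5, for which 28.1% of all calls, and 39.6% of those that averaged 10 FPKM or more, were lower.

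The scale between samples moved the fall of the 2 genes by less than their spread between pools. The total FPKM of the afidopyropen samples was below that of the control samples. With each sample rescaled to a common total, the log2 fold change was -1.11 for *CYP301A1* and -0.80 for *CYP303A1*. With each sample left out in turn, under other scalings and with other pseudocounts, the log2 fold change ranged from -1.19 to -1.08 for *CYP301A1* and from -0.88 to -0.79 for *CYP303A1*.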

How the data were processed

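RNA from pools of nymphs that were treated in the third instar was sequenced in 3 afidopyropen and 3 control samples, which were grouped by their titles. The authors deposited 1 table of FPKM per unigene and sample, with 2 decimals. According to the paper's methods, filtered reads were assembled with Trinity, made non-redundant with CD-HIT, aligned with Bowtie2 and quantified with RSEM. The processing notes of the submitters list other tools (cutadapt 1.9, StringTie, edgeR, DESeq2), and which tools made the values was not settled. Reads of a gene split over several unigenes would lower the level given for it.

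log2(FPKM + 0.5) was tested with limma 3.58.1 (trend) in R 4.3.3 for the 51749 unigenes that averaged 0.5 FPKM or more over the samples, which both genes passed, with no block and Benjamini-Hochberg adjustment over all of them. A pseudocount understates the change of low unigenes. No count test was run on FPKM. The test was tested on simulated data. The rest was computed with pandas 2.3.3 in Python 3.11.15.

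The genes and the P450 list were chosen with earlier results of these data known. The genes named are the 16 P450 genes and, for each of the pair, the unigene of highest correlation. The alternatives were pseudocounts, filters, scalings, limma settings, the replicate block and leaving out each sample. GO, KEGG, RT-qPCR and bioassays were not analysed here.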

Additional observations from a re-analysis of the deposited data

How the results depend on the processing

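The falls of *CYP301A1* and *CYP303A1*, and the difference between them, moved by less than the spread between replicates in each of 12 alternatives. That was bound to hold in many of them. In a group of 3 samples, leaving out 1 always moves the fold change by less than that spread. The replicate block cannot move it in a balanced design, and rescaling whole samples nearly cancels in the difference. The pseudocounts and, for the falls, the scalings could have moved the values further. At pseudocounts of 0.1 and 1, *CYP301A1* was at -1.18 and -1.10 and *CYP303A1* at -0.84 and -0.82. With 1 sample left out, the fall of *CYP301A1* ranged from -1.19 to -1.08, that of *CYP303A1* from -0.88 to -0.80 and their difference from -0.39 to -0.22 on the log2 scale. The place of *CYP301A1* in the control was 90.9% among unigenes above 0 in a control sample, 90.5% at a mean of at least 0.5 FPKM and 88.5% at a mean of at least 1 FPKM, and that of *CYP303A1* was 96.6%, 96.4% and 95.7%. Both shifts follow from the fewer low unigenes compared. With 1 control sample left out, the places ranged from 91.2% to 91.6% and from 96.7% to 96.9%.

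The 9308 unigenes called became 6156 without limma's trend, and 6889 to 7680 with 1 sample left out. The 7 other P450 genes called became 3 to 6 with 1 sample left out. The log2 fold change of *CYP6DD1* was -0.03 as deposited, but 0.0025 at a common total, 0.0067 under median-of-ratios scaling, 0.025 under quantile normalization and 0.0013 without afidopyropen replicate 3, and with 1 sample left out it ranged from -0.062 to 0.0013. That of *CYP15A1* was 0.02, and -0.032 to 0.053 with 1 sample left out, the lowest without control replicate 3. Neither passed the test. The median log2 fold change of all unigenes was -0.04 as deposited and between -0.02 and 0.0029 under the other scalings.

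The sources used here do not say whether samples with the same replicate number were handled together. The deviations of same-numbered samples from their group means had correlations of -0.0041, 0.0011 and 0.0077, so no shared variation was seen. The highest correlation of any afidopyropen sample with any control sample was 0.012. Such values cannot tell how the repeats were run. With the replicate number as a block, 6555 unigenes and 3 other P450 genes were called, and the calls of *CYP302A1*, *CYP314A1*, *CYP306A1* and *CYP6CY77* were lost (adjusted p = 0.0782, 0.0643, 0.0803 and 0.120 from limma).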
